A study of Mus musculus with 9 samples.

Results

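The 43 genes described here are the B cell identity and signaling genes: 22 transcription factors of the B lineage, 8 surface proteins including the B cell receptor subunits, 3 surrogate light chain genes, 3 recombination genes and 7 signaling genes. They were chosen by name, as lineage factors, recombination genes and receptor genes, with earlier results of these data known, and all 43 were found among the 22225 protein-coding gene symbols of the GENCODE M1 annotation of mm9. The data are peak lists from chromatin immunoprecipitation sequencing (ChIP-seq) with a polyclonal antibody against UBTF1/2, made from mouse pre-B cells with 2 biological replicate libraries for each of 3 stages. Wild type and premalignant mice were 4 to 6 weeks old and malignant mice 10 to 20 weeks, taken once spontaneous lymphoma was established. The methods of the study give females for wild type and premalignant collections and both sexes for malignant ones. Age and sex therefore cannot be told apart from stage for the malignant mice. All were C57BL/6, and the premalignant and malignant mice carried the Eµ-Myc transgene as heterozygotes, in which a B cell enhancer of the immunoglobulin heavy chain locus drives Myc. The sample labels give 1 bone marrow sort for every stage, on high B220 with low IgM and low IgD. The methods of the study give that gate for wild type and premalignant cells and a B220-positive, IgM- and IgD-negative gate for malignant cells, so a difference of gate cannot be told apart from stage for the malignant lists. The same methods describe the wild type and premalignant cells as pro-B and pre-B cells and the malignant ones as transformed pre-B cells. Peak lists hold no RNA levels, and the labeled cell type was therefore not checked by its markers here. Input samples were not analysed here, since no peak list belongs to them.

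UBTF is the architectural factor that keeps ribosomal RNA genes in an open state for RNA polymerase I, and it is also found at promoters of genes read by RNA polymerase II. Pre-B cells are made under a network of transcription factors in which TCF3 (E2A), EBF1 and PAX5 specify and commit the lineage, while IKZF1 and FOXO1 switch on the recombination genes. Cells of the pre-B stage have rearranged the heavy chain locus and show a pre-B cell receptor built with the surrogate light chain. They read survival and division cues through the interleukin-7 receptor and a kinase cascade with BLNK, SYK and BTK. The pro-B cells in the wild type and premalignant gate were not told apart from them here.

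In what follows, a gene has a promoter summit in a list if the highest point of a called peak lies within 1 kb of any annotated transcript start of the gene, and a body summit if a peak summit lies inside the gene and over 1 kb from every start. The gene percentile ranks genes by the score of their best promoter summit among all 22225 genes in that list, with the highest at 100. The list percentile ranks a summit by score among all peaks of its own list. Both are ranks within a list because the scores are not scaled between libraries. The lists hold between 78074 and 575595 peaks on chromosomes 1 to 19, X and Y, and their depth is unknown. The narrowest peak is 240 to 260 bp in both wild type lists and premalignant replicate 1 and 670 to 800 bp in the other 3 lists, a difference that moves with stage, and its part in the results cannot be told apart from stage for wild type against malignant.

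Sequence at the summits shows the kinds of promoter involved. The first set is 4 promoter summits with many CpG dinucleotides, printed 5′ to 3′ on the strand of the gene as the summit with 100 bases on either side, from mm9 (NCBIM37). Capitals mark CG dinucleotides. The Bcl6 window (chr16:23988134-23988334, minus strand, an intron, wild type replicate 2) holds 25 of them, the Ebf1 window (chr11:44431901-44432101, plus strand, an intron, malignant replicate 1) 24, the Cd24a window (chr10:43298695-43298895, plus strand, upstream of the gene, wild type replicate 1) 19 and the Myb window (chr10:20880797-20880997, minus strand, upstream of the gene, premalignant replicate 2) 33.
Bcl6: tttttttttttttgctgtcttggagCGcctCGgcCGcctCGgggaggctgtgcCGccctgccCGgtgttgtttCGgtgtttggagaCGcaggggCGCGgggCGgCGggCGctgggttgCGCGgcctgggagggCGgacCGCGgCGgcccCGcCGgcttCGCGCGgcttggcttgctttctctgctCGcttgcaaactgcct
Ebf1: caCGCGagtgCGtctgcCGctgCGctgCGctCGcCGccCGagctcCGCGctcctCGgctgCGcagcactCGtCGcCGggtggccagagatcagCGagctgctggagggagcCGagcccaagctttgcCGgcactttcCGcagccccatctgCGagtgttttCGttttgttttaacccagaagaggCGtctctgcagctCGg
Cd24a: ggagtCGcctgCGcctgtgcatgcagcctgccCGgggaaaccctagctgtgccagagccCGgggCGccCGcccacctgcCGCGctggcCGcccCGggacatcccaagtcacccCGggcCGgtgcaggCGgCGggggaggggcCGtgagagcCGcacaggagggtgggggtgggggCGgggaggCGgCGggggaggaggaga
Myb: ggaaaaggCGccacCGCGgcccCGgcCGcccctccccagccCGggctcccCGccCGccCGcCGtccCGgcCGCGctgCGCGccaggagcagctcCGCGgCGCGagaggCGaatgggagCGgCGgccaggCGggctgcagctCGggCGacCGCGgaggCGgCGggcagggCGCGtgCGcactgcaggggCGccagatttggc
The second set is the 200 bp just before the 5′ ends of 3 genes with no promoter summit in any list, again with CG in capitals. Rag2 (chr2:101464675-101464874, plus strand) holds 3, Cd79a (chr7:25682200-25682399, plus strand) 4 and Igll1 (chr16:16864079-16864278, minus strand) 1.
Rag2: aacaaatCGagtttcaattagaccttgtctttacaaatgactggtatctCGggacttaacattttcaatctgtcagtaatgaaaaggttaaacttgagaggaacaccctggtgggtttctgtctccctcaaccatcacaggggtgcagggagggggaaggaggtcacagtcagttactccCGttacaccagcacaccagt
Cd79a: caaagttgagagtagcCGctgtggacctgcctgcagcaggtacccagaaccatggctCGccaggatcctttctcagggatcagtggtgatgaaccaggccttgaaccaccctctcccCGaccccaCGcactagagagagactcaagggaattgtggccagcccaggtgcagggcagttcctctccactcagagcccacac
Igll1: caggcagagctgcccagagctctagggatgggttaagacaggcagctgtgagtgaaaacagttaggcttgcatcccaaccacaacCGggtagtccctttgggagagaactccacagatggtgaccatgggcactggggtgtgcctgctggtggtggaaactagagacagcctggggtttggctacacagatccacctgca

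UBTF summits stood at the promoters of 14 to 22 of the 22 B lineage transcription factors by list. Of the recombination genes 1 had one, in a single list. Surrogate light chain genes gave 1 of 3 (33.3%) in 4 lists, against 36.6% to 47.7% of all genes there. Surface protein genes were above the share of all genes in 4 of the 6 lists, in wild type replicate 1 by 37.5% against 36.6%. Groups of 3 to 8 genes are too small to tell such shares apart. Of the 43 genes, 25 and 26 had a promoter summit in wild type replicates 1 and 2, 20 and 19 in premalignant replicates 1 and 2, and 30 and 21 in malignant replicates 1 and 2. Among all protein-coding genes the shares were 36.6%, 45.6%, 22.4%, 33.7%, 47.7% and 41.1% in the same order, against 58.1%, 60.5%, 46.5%, 44.2%, 69.8% and 48.8% of the B cell genes. The share exceeded that of the other 22182 genes by 7.72 to 24.2 percentage points, least in malignant replicate 2 and most in premalignant replicate 1. The lead depended on the window and on which starts were counted. At a window of 2 kb the excess was 2.26 points in premalignant replicate 2 and 0.796 in malignant replicate 2. In the other lists it was then 12.5 to 27.1 points. With only the 5′ end of each gene in place of every annotated start, the excess ranged from 17.9 points in premalignant replicate 1 to -2.24 in malignant replicate 2. Against the 17269 other genes with assigned symbols that encode no olfactory or vomeronasal receptor it was 3.29 to 20.6 points.

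Among genes with a promoter summit, the median list percentile of the best one was 76.3, 78.8, 72.0, 85.7, 85.5 and 86.7 for the B cell genes in the order of lists above and 51.9, 56.7, 52.9, 66.2, 60.4 and 71.8 for the others. A gene percentile over 90 was reached by 14, 14, 15, 11, 15 and 9 of the 43, against 10.0%, 10.0%, 10.2%, 10.0%, 9.98% and 10.0% of all genes. Across the 6 lists 13 of the 43 genes had a promoter summit in every list, against 10.4% of all genes, and 7 had none in any list, against 30.4% of all genes. The plot of gene percentiles by list shows both ends of this range, with 11 transcription factors among the 13 genes that had a summit in every list.

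**Figure D1:**
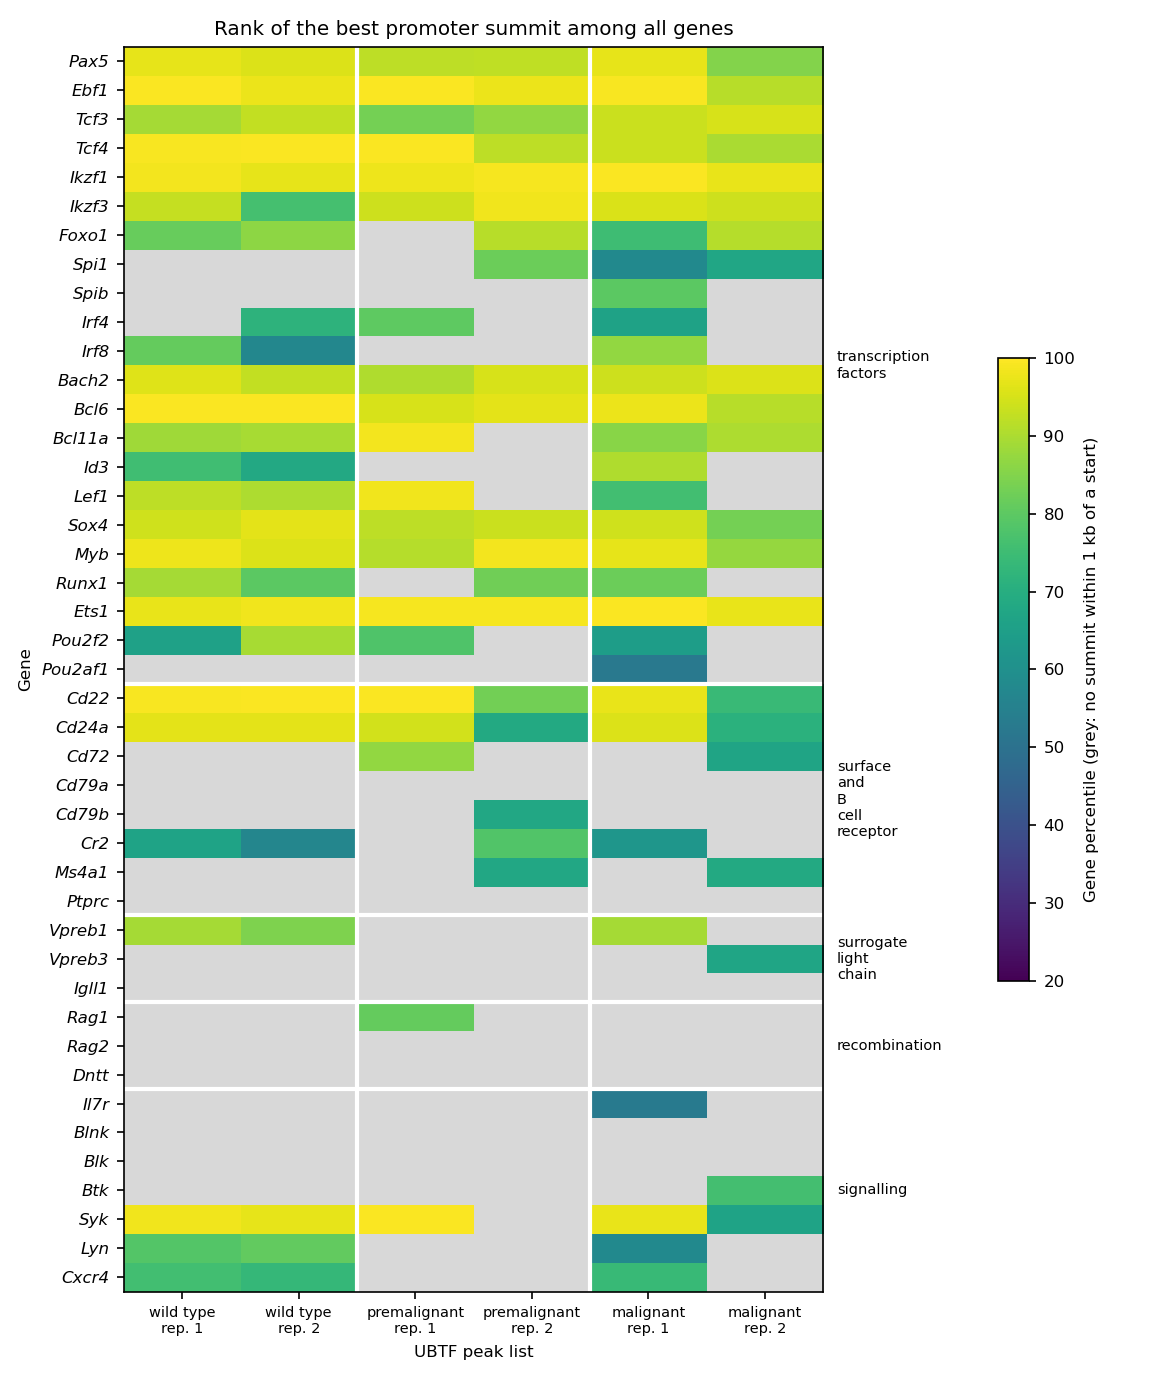
Gene percentile of the best promoter summit for each of the 43 genes (rows, grouped by role) in each of the 6 UBTF peak lists (columns), with grey where no summit lies within 1 kb of a start. The 13 genes colored across all 6 columns are 11 transcription factors, Cd22 and Cd24a, and the recombination genes are grey in all but 1 cell.

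By role, 11 of the 22 transcription factors had a promoter summit in all 6 lists and each of the 22 had one in at least 1 list. The number with a summit was 18 and 19 in the wild type lists, 15 and 14 in the premalignant ones and 22 and 14 in the malignant ones. Of the 8 surface protein genes 3, 3, 3, 5, 3 and 4 had a summit in the order of lists above (37.5% to 62.5%), of the 7 signaling genes 3, 3, 1, 0, 4 and 2. The 3 recombination genes together gave a single gene in a single list, and the 3 surrogate light chain genes 1 gene each in 4 of the lists.

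Ets1, a factor of the ETS family needed in B and T lymphocytes, had the highest mean gene percentile of the 43 genes, 98.4. Its gene percentiles were 97.5 and 98.3 (wild type), 98.9 and 99.1 (premalignant) and 99.5 and 97.4 (malignant). The summit lay 20 bp upstream to 94 bp downstream of an internal start 59.8 to 59.9 kb from the 5′ end of the gene (chr9:32443806-32565405, plus strand), in a UTR exon of that shorter transcript in 5 lists and in an intron in malignant replicate 2.

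Ikzf1 encodes Ikaros, a zinc finger factor required for lymphoid development (chr11:11585006-11672929, plus strand). The 6 lists gave it gene percentiles of 98.6 and 97.0 (wild type), 98.0 and 98.8 (premalignant) and 99.7 and 97.4 (malignant), a range of which the lowest value was 97.0. The summits fell within 91 bp of 3 neighboring starts, in UTR exons, over a stretch of 370 bp.

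Ebf1, the early B cell factor, stood at 99.5 and 97.7 (wild type), 99.5 and 97.8 (premalignant) and 99.3 and 91.3 (malignant). Its summits kept to 126 to 320 bp downstream of 1 start, within 194 bp of each other, in a coding exon or an intron (gene chr11:44430819-44821593, plus strand). The lowest value was that of malignant replicate 2, which also gave the lowest value of Pax5, Tcf4, Bcl6, Myb, Sox4 and Cd22.

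Bcl6 encodes a transcriptional repressor needed by germinal center B cells (chr16:23965138-23988938, minus strand). It reached gene percentiles of 99.6 and 99.5 (wild type), 95.2 and 96.7 (premalignant) and 97.5 and 91.4 (malignant). Both wild type values were above those of the other 4 lists. The summits lay 602 to 959 bp downstream of the 5′ end, in an intron in all 6 lists.

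Tcf4, which encodes the E protein E2-2 (chromosome 18), stood at 99.1 and 99.4 (wild type), 99.4 and 91.9 (premalignant) and 93.6 and 89.8 (malignant). The best summit was not at the same place in the 6 lists. In both wild type lists and premalignant replicate 1 it lay in an intron 249 kb from the 5′ end, beside an internal start and on a ga repeat of 53 bp, and in the other 3 lists it lay on GC-rich sequence 218 to 2203 bp from the 5′ end.

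Pax5, the factor that commits cells to the B lineage (chr4:44544017-44724318, minus strand), had gene percentiles of 97.1 and 95.7 (wild type), 92.2 and 92.2 (premalignant) and 97.0 and 85.2 (malignant). In wild type replicate 1 and malignant replicate 1 the best summit lay 535 and 528 bp from the 5′ end, in a UTR exon, and the sequence around it had 67.7% and 69.2% GC. In wild type replicate 2 and both premalignant lists it lay more than 10 kb from the 5′ end, in an intron and on a tandem repeat, and in malignant replicate 2 in an intron 1152 bp from that end. Its value in malignant replicate 2 was the lowest of the 6.

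Myb, a factor of lymphoid progenitors, stood at 97.8 and 95.7 (wild type), 91.2 and 98.7 (premalignant) and 96.9 and 87.3 (malignant). Bach2, a repressor of plasma cell differentiation, stood at 96.1 and 92.7, 90.6 and 95.1, and 94.0 and 95.8 in the same order. Sox4, needed for survival of early B cells, stood at 94.1 and 96.6, 91.9 and 93.6, and 94.3 and 83.4. The values of the stages overlapped for each of these 3 genes, except that both wild type values of Sox4 lay above both premalignant values.

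Tcf3 encodes E2A, the E protein at the start of the B lineage program (chr10:79872259-79896392, minus strand). It had gene percentiles of 89.3 and 92.6 (wild type), 83.3 and 86.9 (premalignant) and 93.7 and 95.1 (malignant). Gene percentiles of the 3 stages did not overlap, premalignant being lowest and malignant highest, with the summit 87 bp upstream to 68 bp downstream of a start. By list percentile, wild type (67.6 and 80.6) and premalignant values (30.3 and 75.9) overlapped, and malignant values (91.3 and 95.8) stayed highest. Ikzf3, which encodes Aiolos, was higher in both premalignant lists (93.9 and 98.3) and both malignant lists (95.6 and 93.9) than in wild type (93.1 and 76.6), a gap that for wild type replicate 1 is under 1 percentile.

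Foxo1, which activates the Rag genes, had a promoter summit in 5 lists, with gene percentiles of 81.4 and 86.4 in wild type, 91.4 in premalignant replicate 2 and 75.2 and 91.2 in malignant cells. In premalignant replicate 1 its nearest summit was 1119 bp from the start, just outside the 1 kb window. The nearest summit just outside that limit in the other 5 lists was that of Ms4a1 (1726 bp) and Spib (1051 bp) in wild type replicates 1 and 2, Il7r (1018 bp) in premalignant replicate 2, and Cd72 (2611 bp) and Blk (1125 bp) in malignant replicates 1 and 2. Just inside it were Cr2 (962 bp), Bcl6 (704 bp), Rag1 (952 bp), Ms4a1 (790 bp), Spib (814 bp) and Cd72 (826 bp) in the order of lists above.

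Cd22, an inhibitory co-receptor of the B cell receptor (chr7:31650421-31665361, minus strand), was the most sharply placed of the genes with a summit in all lists. Its gene percentiles were 99.3 and 99.6 (wild type), 99.6 and 83.1 (premalignant) and 97.4 and 74.2 (malignant). The 6 best summits lay within 20 bp of each other, 73 to 93 bp downstream of an internal start and 1.39 to 1.41 kb from the 5′ end, on a 47 bp repeat of ag in a UTR exon. It is the single gene among the 13 whose promoter was not rich in CpG by the definition given below.

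Cd24a encodes the heat-stable antigen that marks immature B cells (chr10:43298975-43304068, plus strand). It stood at 96.6 and 96.7 (wild type), 94.4 and 68.5 (premalignant) and 95.6 and 71.2 (malignant), with summits 114 to 373 bp upstream of its single start. Cd79a and Cd79b, the signaling subunits of the B cell receptor, differed from it. Cd79a had no promoter summit in any list, its nearest summit being 2673 to 5647 bp away, and Cd79b had one in premalignant replicate 2 alone, at a gene percentile of 68.0 and a list percentile of 8.12. Ptprc, which encodes the B220 antigen used in the sort, had no summit within 8813 bp of a start in any list.

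Rag1 and Rag2 encode the recombinase that cuts antigen receptor genes. Rag1 had a promoter summit in premalignant replicate 1 alone, 952 bp upstream of the start, at a gene percentile of 81.0 and a list percentile of 20.1. That window also holds a start of another gene, B230118H07Rik, so the summit cannot be assigned to Rag1 alone. Rag2 had none, with the nearest summit 11922 to 53671 bp away. Dntt, the terminal transferase that adds bases at junctions, also had none, the nearest being 5672 to 29327 bp away.

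The surrogate light chain is encoded by Igll1 and Vpreb1, with Vpreb3 as a related gene. Igll1 had no promoter summit, the nearest being 5676 to 21521 bp away. Vpreb1 had one in wild type replicates 1 and 2 (gene percentiles 89.1 and 84.6) and malignant replicate 1 (89.3), 41 bp upstream to 57 bp downstream of a start, and none in the other 3 lists. Its window also holds a start of Top3b, which encodes a topoisomerase, and which of the genes it belongs to cannot be told apart. Vpreb3 had one in malignant replicate 2 alone, at 67.1.

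Among the signaling genes, Syk, a kinase recruited to the phosphorylated B cell receptor, had a promoter summit in 5 lists. Its gene percentiles were 98.4 and 97.2 in wild type, 99.5 in premalignant replicate 1 and 97.4 and 66.3 in malignant replicates 1 and 2. Blnk, the adaptor downstream of Syk, and Blk, a Src-family kinase, had no promoter summit in any list. Il7r, the interleukin-7 receptor chain, had one in malignant replicate 1 alone, at a list percentile of 2.81. Btk had one in malignant replicate 2 alone, at a gene percentile of 76.1.

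The 13 genes with summits in all lists and the 7 with none differed in the base composition of their promoters. A promoter was called CpG-rich if any 500 bp window within 1 kb of a start had at least 55% GC and an observed over expected CpG ratio of at least 0.6, limits chosen after the data were seen. By this definition 23 of the 43 genes were CpG-rich: 18 of 22 transcription factors, 1 of 8 surface protein genes (Cd24a), 1 of 3 surrogate light chain genes (Vpreb1), 0 of 3 recombination genes and 3 of 7 signaling genes (Syk, Lyn and Cxcr4). Of the 13, 12 were CpG-rich (92.3%), and of the 7 none was. In the 1 kb either side of the 5′ end the 7 had a median of 46.6% GC and a CpG ratio of 0.253, and the 13 a median of 54.0% GC and a ratio of 0.709. The same order holds among other genes, of which 92.7% of those with a summit in all lists and 17.0% of those with none were CpG-rich.

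Within the CpG-rich class the B cell genes had summits more often than other genes in each list. All 23 had a promoter summit in wild type replicates 1 and 2 and in malignant replicate 1, where 54.8%, 66.5% and 71.7% of the other 13220 CpG-rich genes did. In premalignant replicates 1 and 2 they numbered 16 and 14 (69.6% and 60.9%, against 33.6% and 45.0%), and in malignant replicate 2 15 (65.2%, against 54.9%). The 20 genes that were not CpG-rich had 2, 3, 4, 5, 7 and 6 summits in the order of lists above, or 10.0% to 35.0%, against 5.61% to 20.8% of the other 8962 genes. With the class and the summit both taken at the 5′ end alone, 20, 18, 14, 9, 19 and 12 of 21 CpG-rich B cell genes had a summit, from 42.9% to 95.2%, against 30.9% to 68.2% of others. Of the 22 B cell genes not CpG-rich at that end 4.55%, 9.09%, 9.09%, 18.2%, 22.7% and 9.09% had one, against 7.91%, 12.2%, 4.36%, 13.8%, 10.3% and 17.1% of others, so the order was turned in both wild type lists and malignant replicate 2. No test was run on these shares, and transcript levels were not part of these files.

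**Figure D2:**
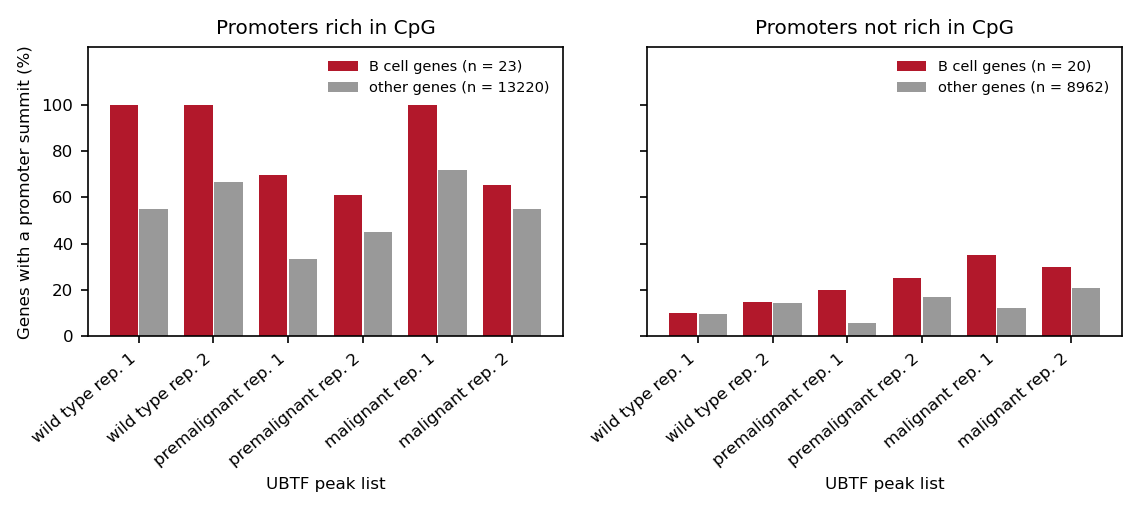
Percent of genes with a promoter summit in each UBTF list, for the 43 B cell genes (red) and other protein-coding genes (grey), split by whether the promoter is CpG-rich. All 23 CpG-rich B cell genes have one in 3 lists, and in the class that is not CpG-rich the red bars stay between 10.0% and 35.0% and the grey ones between 5.61% and 20.8%.

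The position of the best summit relative to the nearest start also varied. Over the 141 pairs of gene and list with a promoter summit, 96 (68.1%) lay within 300 bp of a start, and 74 (52.5%) lay downstream of it. A further feature was the use of internal starts, with 50 best summits (35.5%) over 1 kb from the 5′ end of the gene. Of the 13 genes with a summit in all 6 lists, 9 had their best summits within 500 bp of each other and 2, Pax5 and Tcf4, had them more than 10 kb apart. Of the 141 summits 42 fell in UTR exons, 14 in coding exons, 7 in exons of non-coding transcripts, 43 in introns and 35 outside the gene.

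**Figure D3:**
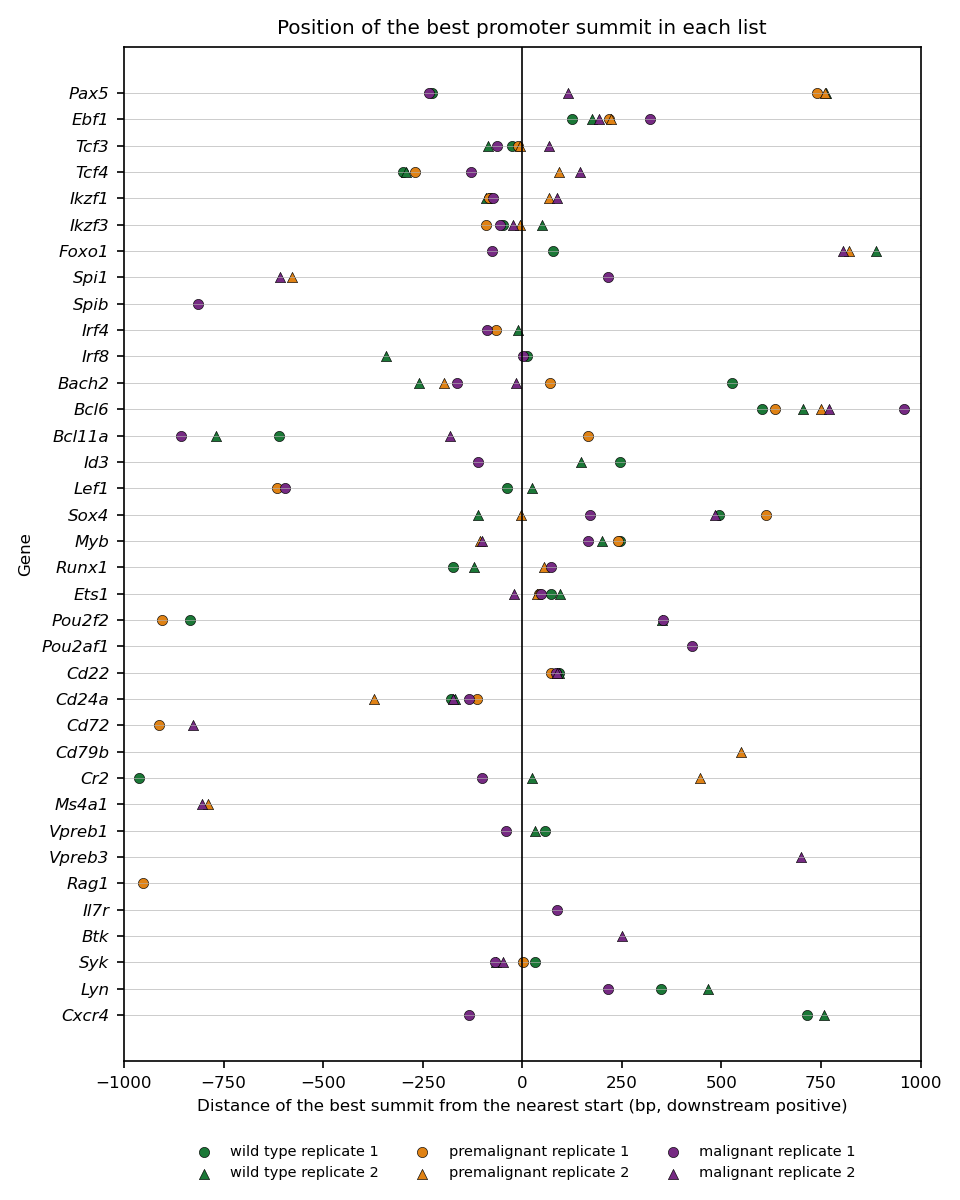
Distance in bp from the best promoter summit to the nearest annotated start for the 36 genes with a promoter summit in any list, by list (color for stage, circles for replicate 1 and triangles for replicate 2), with downstream positive. The points of Cd22 span 20 bp and those of Ets1 114 bp, while those of Bcl6 lie 602 to 959 bp downstream.

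Sequence letters at the promoter summits were searched on both strands in windows reaching 100 bases either side of the summit. GGGCGG, the GC box, was in 42.3% to 73.3% of the windows of B cell genes by list, against 49.2% to 58.5% at other genes and 40.1% of windows of the same length at the 5′ ends of all genes. CACGTG, the E-box to which MYC binds, was in 3.85% to 9.52% of the windows, against 3.22% to 4.53% at other genes and 5.57% of all promoters, and was present at Ikzf3 in all 6 lists. CAGGTG, an E-box of E2A type, was in 9.52% to 20.0%, against 11.9% to 15.0% at other genes and 14.0% of all promoters. CCCNNGGG, the core of the EBF1 motif, was in 5.26% to 16.7%, below other genes (16.4% to 19.1%) in each list, and in 10.8% of all promoters. TTCCTC, an ETS core, was in 12.0% to 23.3%, against 13.0% to 15.4% at other genes and 20.0% of all promoters. A match is a description of letters and not a binding site. Windows on a tandem repeat (at least 40 bp of a unit of 1 to 6 bp) numbered 20 of the 141 and came from 10 genes, with 6 from Cd22 and 3 each from Pax5 and Tcf4. Such repeats lay in 0.576% of windows at the 5′ ends of all genes and in 5.67% to 15.9% of the best promoter summits of other genes by list. In 135 of the 141 windows the median 24-mer occurred once in mm9.

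In gene bodies the B cell genes had a summit more often than other genes in each list. A body summit was present in 26, 26, 24, 26, 26 and 28 of the 43 genes in the order of lists above, against 37.7%, 47.2%, 28.4%, 51.6%, 44.8% and 57.5% of all genes. The B cell genes were longer, with a median of 30.2 kb against 15.5 kb. Among bodies of 20 kb or more, 84.0% to 92.0% of 25 B cell genes had a body summit, against 57.7% to 94.0% of 8860 others, and in malignant replicate 2 the order was turned (92.0% against 94.0%). Per 100 kb of body the B cell genes had 4.16, 5.80 and 2.31 summits in both wild type lists and premalignant replicate 1, close to 3.49, 5.58 and 2.21 in other genes. In premalignant replicate 2 and malignant replicates 1 and 2 they had 5.30, 3.70 and 9.03 against 14.3, 6.97 and 14.9, and these are the 3 lists with wide narrowest peaks. No test was run on these densities.

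**Figure D4:**
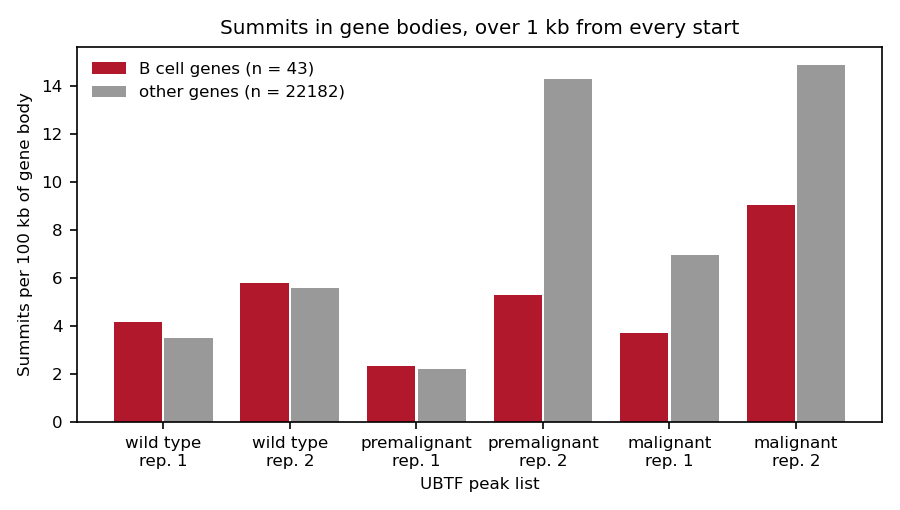
Summits per 100 kb of gene body, over 1 kb from every start, in each UBTF list for the 43 B cell genes (red) and the other 22182 protein-coding genes (grey). Densities of both groups are alike in the first 3 lists, and the B cell genes have 3.70 to 9.03 against 6.97 to 14.9 in the last 3.

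Body summits stood on repeats far more often than promoter summits did. Over 156 pairs of gene and list, the best body summit lay on a tandem repeat in 79 and on sequence whose median 24-mer occurred more than 10 times in mm9 in 63, and 141 of the 156 were in introns. By list 34.6% to 70.8% of the best body summits of B cell genes lay on a tandem repeat, against 19.7% to 65.9% of those of other genes, and the share of B cell genes was the lower one in both wild type lists. Copies in mm9 were not counted for other genes. By mean list percentile the 5 highest were Blk (99.9), Ebf1 (96.2), Bach2 (94.3), Runx1 (91.8) and Ikzf3 (90.9). Blk, which had no promoter summit, had its best body summit at a list percentile of at least 99.7 in each list, on sequence whose median 24-mer occurred more than 10 times in mm9 in each. Dntt, also without a promoter summit, had its best body summit at list percentiles of 56.0 to 94.5, on a tandem repeat in each list. The part of repeats in the scores of body summits was not tested.

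Stage comparisons of single genes were made by asking whether every list of a stage stood above every list of another. Both wild type lists had a promoter summit in 25 of the 43 genes (30.5% of all genes), both premalignant lists in 13 (13.9%) and both malignant lists in 17 (28.8%). A summit was found for 5 B cell genes (11.6%) in both wild type lists and in no premalignant list, against 6.32% of all genes. They were Vpreb1, Cxcr4, Id3, Irf8 and Lyn. Only genes with a summit in both wild type lists could be counted, which were 25 B cell genes and 6784 genes in all. Of those, 5 and 1404 had no premalignant summit, so the B cell genes did not lead among them. The chemokine receptor gene Cxcr4 had gene percentiles of 75.7 and 73.3 in wild type and 73.8 in malignant replicate 1. Id3, which encodes an inhibitor of E proteins, had 75.5 and 68.3 in wild type and 90.5 in malignant replicate 1. Irf8 had 81.1 and 56.9 in wild type and 86.9 in malignant replicate 1. The Src-family kinase gene Lyn had 78.7, 80.7 and 57.8 in the same 3 lists. The Irf8 summit of wild type replicate 2 lay 8779 bp from the 5′ end, in an intron on an ac repeat of 50 bp. In wild type replicate 1 and malignant replicate 1 it lay 13 and 3 bp from that end, so the Irf8 call joins different places. These 5 genes share the pattern that malignant replicate 1 had the summit and malignant replicate 2 did not. That pattern was common. Of the 43 genes 30 had a summit in malignant replicate 1 and 17 in both malignant lists, and of all genes 10591 and 6408.

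Spi1, which encodes PU.1 and carries the older symbol Sfpi1 in the annotation, was the single gene with a summit in both malignant lists and in no wild type list, against 3.29% of all genes. Its gene percentiles were 57.8 and 67.4 in malignant cells and 82.1 in premalignant replicate 2, at 2 internal starts 13.1 to 14.6 kb from the 5′ end. No B cell gene had a summit in both premalignant lists and in no wild type list (0.432% of all genes) or in no malignant list (0.31%). None had one in both malignant lists and no premalignant list (4.59%), or in both wild type lists and no malignant list (1.75%).

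By gene percentile 10 genes (23.3%) were higher in both wild type lists than in both premalignant lists, against 10.7% of all genes. They were the 5 named above with Bcl6, Cd24a, Pax5, Sox4 and Tcf3. Each such comparison asked for a summit in both lists of the higher stage. Of the 25 B cell genes and 6784 genes in all with both wild type summits, 10 and 2369 were so placed, a smaller lead. Both premalignant lists were above both wild type lists for Ets1 and Ikzf3, against 4.15% of all genes. Malignant lists were above premalignant lists for Tcf3 alone (7.05%) and below them for no gene (3.44%). Malignant lists were above wild type lists for Ikzf3, Spi1 and Tcf3 (8.43%). They were below them for 7 genes, namely Bcl6, Cd22, Cd24a, Lef1, Lyn, Pou2f2 and Tcf4 (9.39%). Among the same 25 and 6784 genes, 7 and 2088 were so placed, and the B cell genes did not lead. These comparisons share their wild type, premalignant or malignant lists with each other. Some also join different places in a gene. The Pou2f2 summit lay 834 bp upstream of the 5′ end in wild type replicate 1 and 11981 bp downstream of it in wild type replicate 2. Those of Pax5 and Tcf4 differed between lists as described above.

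For the 43 genes as a whole, differences between stages were tested over libraries with a two-sided exact permutation test. With 2 libraries against 2 the smallest p it can give is 0.333, so no difference could be called. The excess of the promoter share over other genes was 18.2 ± 4.72 points (wild type), 17.3 ± 9.7 (premalignant) and 14.9 ± 10.2 (malignant) (mean ± SD, n = 2). Premalignant minus wild type was -0.902 (exact p = 1), malignant minus premalignant -2.41 (exact p = 0.667) and malignant minus wild type -3.31 (exact p = 1), all within the spread of replicates. The median gene percentile of the 43 genes was 74.5 ± 1.75 (wild type), 36.0 ± 4.02 (premalignant) and 52.3 ± 32.4 (malignant). The difference of -38.5 between premalignant and wild type was larger than the spread of either stage (exact p = 0.333). In both premalignant lists and malignant replicate 2 under 50% of the genes had a promoter summit, so that the median (38.8, 33.1 and 29.4) was the value given to genes without one. The malignant mean therefore joins such a value with the 75.2 of malignant replicate 1. For premalignant minus wild type with 5′ ends alone the difference was 6.48, with the opposite sign. Under 50% of the genes had a promoter summit in each of those lists. That difference is therefore one between values given to genes without a summit.

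The excess of the body share was 18.1 ± 6.7 points (wild type), 18.2 ± 13.1 (premalignant) and 11.7 ± 5.66 (malignant), with differences of 0.145, -6.55 and -6.4 in the order used above (exact p = 1, 0.667 and 0.667). After Benjamini-Hochberg adjustment over the 9 differences each exact p was 1, and 0 of 9 had an unadjusted p under 0.05.

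Lists of other blood cell genes were counted in the same way. Of 54 further genes of B cell pathways 53 were found as protein-coding, and of those 35, 35, 19, 24, 29 and 31 had a promoter summit in the order of lists above, 9 of them in all 6 lists and 13 in none. Of 20 T cell genes found, of 21 listed, 6, 8, 2, 6, 6 and 7 had one, of 22 myeloid genes 2, 5, 3, 5, 5 and 8, and of 20 erythroid and megakaryocyte genes 8, 7, 6, 7, 10 and 7. The shares of all genes were 36.6%, 45.6%, 22.4%, 33.7%, 47.7% and 41.1%. Further B cell genes were above them in each list, and T cell and myeloid genes below them in each. Erythroid and megakaryocyte genes were below them in wild type replicate 2 and malignant replicate 2 and above them elsewhere. In all 6 lists stood 1 T cell gene, 0 myeloid genes and 3 erythroid and megakaryocyte genes (15.0%). Of all genes 10.4% did, and of the further B cell genes 17.0%. These counts carry no test and no adjustment for CpG content, so no contrast between lineages is drawn from them.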

How the data were processed

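UBTF ChIP-seq peak lists of 6 libraries were used, 2 for each of 3 stages, out of 9 samples. Paired reads were aligned by the authors, using bowtie2, to mm9 plus an rDNA repeat. Duplicates were removed with Picard (version 1.110 in the submitters' processing notes) and peaks were called in each library by SPP. For its own comparisons the study kept only peaks shared by replicates that passed an irreproducible discovery rate threshold. That filter was not applied here, so summits found in a single list or at a low rank are included. Each deposited list gives, per peak, a region, a summit, a score in the units of the peak caller (column 7) and a q-value (FDR, column 9). The score was used for ranks within a list only. Read counts are not part of the lists, so the depth and its precision are unknown and no interval was computed. Peaks on rDNA and mitochondrial DNA were left out.

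Genes were taken from GENCODE M1 (longest record for each of 136 symbols with several records), with mm9 sequence from NCBIM37. Spi1 and Syk were found under older symbols. Summits were placed with Python 3.11.15, pandas 2.3.3 and numpy 2.4.6, tests ran in scipy 1.17.1 and plots in matplotlib 3.10.9. Placement and ranks were checked on a simulated list with known summits. The 43 genes, the lists set beside them and the rules were chosen with earlier results of these data known. Genes named with values were 14 fixed lineage and receptor genes, the 10 highest mean gene percentiles among genes with a promoter summit in all lists, genes with none, genes in both lists of a stage and none of another, those nearest to the 1 kb limit and the 5 highest body summits. Other genes (such as Syk, Cd24a, Ikzf3, Vpreb3 and Btk) were named after their values were seen, as were the CpG-rich limits. Alternatives changed the window, the starts, list length, FDR limit, region overlap, merged regions, comparison genes, libraries and pairing. The sequences at 2 summits are not reported here.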

Additional observations from a re-analysis of the deposited data

How the results depend on the processing

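No alternative made or lost a call, since none was possible. Of 167 alternative values 132 kept their sign or, for counts, stayed within 1.5 times, 24 changed sign and 11 counts moved by over 1.5 times, and the cause was not tested. The excess of the promoter share for premalignant minus wild type turned to 0.837 with the best summit of merged regions, 1.68 against genes with assigned symbols and 5.96 within the narrow-peak libraries, ranged from -7.76 to 5.96 with a library left out, and was -8.26 with shortened lists. For malignant minus premalignant it turned to 1.41 with lists shortened to 78113 peaks, 0.0725 with regions overlapping a start and 4.45 within the wide-peak libraries (range with a library left out -9.62 to 4.81). For malignant minus wild type it turned to 0.285 with merged regions (range -10.5 to 3.91).

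The median gene percentile with 5′ ends only turned to 6.48 for premalignant minus wild type and 15.8 for malignant minus wild type, and with shortened lists to -0.457 for malignant minus premalignant. With a library left out these ranged from -41.3 to -35.7, from -45.1 to 0.757 and from -6.55 to 39.3 respectively. With genes without a promoter summit set to 0, an alternative chosen after seeing the data, they were -74.5, -36.9 and 37.6. With 5′ ends only, under 50% of the B cell genes had a promoter summit in each list except malignant replicate 1 (55.8%). With shortened lists that held in each list except wild type replicate 1 (53.5%). The 6.48 and -0.457 thus compare values given to genes without a summit and give no result on the ranks of the B cell genes. The 15.8 rests on such values in each list except malignant replicate 1. The excess of the body share for premalignant minus wild type turned to -7.97 with shortened lists and -5.84 at an FDR of at most 0.001 (range -9.13 to 9.42), and for malignant minus premalignant to 2.73 within the wide-peak libraries (range -15.8 to 2.73).

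Genes with a promoter summit in all 6 lists fell from 13 to 7 with 5′ ends only and to 6 with shortened lists. Those in no list rose from 7 to 13 with 500 bp windows or with regions overlapping a start, to 12 with 5′ ends and to 16 with shortened lists. Those in both premalignant lists were 8 with 5′ ends or shortened lists and those in both malignant lists 10 with shortened lists. Without a replicate, the former ranged from 19 to 20 and the latter from 21 to 30, as only 1 list is then asked for.

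Replicate numbers were not shown to pair libraries, with correlations of same-numbered libraries of 0.0636, 0.0597 and 0.344. With the replicate block, the differences of the promoter share stayed -0.902, -2.41 and -3.31 with a sign-flip test whose smallest p is 0.5, and no other call changed. The depth of the lists is unknown, and its part in the results was not tested.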
